A study of Mus musculus with 4 samples.

Results

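Cytosolic ribosomal protein genes were followed across 4 expression arrays of mouse keratinocytes. The genes were taken from the array annotation by symbol: Rpl or Rps followed by a digit, or Rplp0, Rplp1, Rplp2 or Rpsa, leaving out S6 kinases (Rps6k), symbols ending in l or l1, and pseudogenes. The rule found 60 of the 16593 genes named on the array, read by 77 of 25697 probes. Of these, 56 genes (71 probes) were detected on at least 1 array, meaning a deposited detection p-value under 0.01, and 54 on all 4. The 56 comprise 33 genes of the large subunit, 22 of the small subunit and Rps19bp1, whose product binds Rps19 and is no part of the ribosome. The retrogene Rps23rg1 also matched the rule without being listed as a subunit, and it was not detected. Rpl6, Rplp2 and Rps23 were not detected on any array either, and the smallest detection p among these 4 genes was 0.147 (Rpl6). Each of the 56 detected genes had a detection p of 0 on at least 1 array.

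The study asked how the γ-secretase inhibitor DAPT, which blocks the cleavage that activates Notch receptors, alters gene expression in keratinocytes during reprogramming. All 4 samples were primary keratinocytes of newborn mice on a 129 background that carry a Pou5f1::GFP transgene, and all had been transduced with reprogramming factors that the series text does not name. The 4 groups were no DAPT on day 4, 2.5 uM DAPT on day 4, no DAPT on day 7 and 2.5 uM DAPT on day 7, with 1 array each. The sample titles gave these groups, while the treatment field of all 4 samples reads DAPT. Whether the cells came from 1 mouse or a pool was not given, and no untransduced sample was analysed here. No group had a replicate, so each comparison sets 1 array against another, without a replicate error or a test. The spread between different probes for 1 gene and the spread over all genes are given, but neither measures the error between replicates.

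A ribosome is made of ribosomal RNA and a large set of small proteins, each built in at a fixed place of the large or the small subunit. Nearly all of the proteins are needed in equal numbers, and their mRNAs are among the most abundant of a growing cell. In mammals nearly all of these mRNAs begin with a C followed by an unbroken run of pyrimidines, the 5′ terminal oligopyrimidine (TOP) motif, through which the mTORC1 pathway controls their translation. An mRNA array reads their abundance and not their translation.

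The start sites of 7 genes described below let genes with a pyrimidine run near the annotated start be set beside genes without it. The symbol rule did not use this feature, and a run near the start need not be a TOP motif. Windows reach from 30 bases before to 20 bases after the start annotated by RefSeq on GRCm38.p6, and capitals mark runs of at least 7 C or T bases. Rpl7a (chr2:26910777-26910826, plus strand), Rps25 (chr9:44407684-44407733, plus strand), Rpl4 (chr9:64173357-64173406, plus strand), Rpl38 (chr11:114668550-114668599, plus strand) and Rps6 (chr4:86857348-86857397, minus strand) hold such a run. Rps2 (chr17:24720033-24720082, plus strand) and Rps3 (chr7:99483690-99483739, minus strand) hold none in the same window, where their longest run is 6 bases. The runs of Rpl4 and Rps25 end before the annotated start. Which of these genes carry a TOP motif was therefore not tested.
Rpl7a: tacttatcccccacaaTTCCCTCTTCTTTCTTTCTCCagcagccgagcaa
Rps25: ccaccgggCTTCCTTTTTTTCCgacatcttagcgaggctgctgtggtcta
Rpl4: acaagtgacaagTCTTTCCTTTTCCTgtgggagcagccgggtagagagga
Rpl38: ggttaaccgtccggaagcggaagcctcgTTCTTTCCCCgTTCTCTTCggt
Rps6: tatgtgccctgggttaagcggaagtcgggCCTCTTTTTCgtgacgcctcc
Rps2: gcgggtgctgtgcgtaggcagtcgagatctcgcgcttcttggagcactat
Rps3: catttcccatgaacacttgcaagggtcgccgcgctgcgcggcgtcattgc

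Promoter windows matched 46 of the 55 detected subunit genes. A run of at least 7 C or T bases on the gene's strand lay in a window of 29 of the 46 (63%), against 33.5% of 27025 genes with a window. The 27025 are not limited to genes detected here. A gene with several annotated starts was counted if any of its windows matched. The letters CCGGAAG, a form of the ETS family motif, lay on either strand within 250 bases before to 50 bases after the start in 18 (39.1%), against 9.93% of all genes. AAGATGG, a YY1-like motif, was found on either strand in 9 (19.6%, against 7.28%), and TATAAA on the gene's strand in 4 (8.7%, against 9.77%). These counts describe letters in annotated windows, whose start can differ from the start used in these cells. The windows shown with a run belong to genes that differed in opposite directions under DAPT on day 4, from -0.85 for Rpl7a to 0.93 for Rpl4 on the log2 scale.

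Ribosomal protein probes were among the brightest on every array. Rplp1, a protein of the acidic stalk that recruits elongation factors, was the brightest probe of all on each of the 4 arrays, with deposited intensities of 43280 and 37755 on day 4 (no DAPT, then DAPT) and 37905 and 39454 on day 7. Of the 100 brightest probes, ribosomal protein probes made up 20, 28, 27 and 26 on these arrays in that order, which is kept wherever 4 values are given below. Their share of the summed intensity was 5.70%, 7.52%, 7.26% and 6.49%, lowest without DAPT on day 4. In the authors' normalized values the shares lay closer together, at 5.59%, 6.04%, 5.87% and 5.59%.

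The arrays differed in total signal. Mean intensity was highest without DAPT on day 4 (472), then with DAPT on day 7 (416), with DAPT on day 4 (365) and without DAPT on day 7 (323), and 12281 to 14145 probes were detected. Values were therefore background-corrected and quantile-normalized, which gives all arrays the same distribution, and are given below as log2 normalized intensity. This step fixes the brightest probe, so the level of Rplp1 is 15.27 on all 4 arrays and its differences of 0 are set by the method. Keratinocyte markers were detected for 10 of 10 genes, with summed deposited intensities of 35502, 36003, 13812 and 21448 in the array order above. The marker sums in this paragraph were not normalized between arrays. Fibroblast markers were detected for 8 of 8 genes (20527, 15506, 24811 and 31524), and melanocyte markers for 5 of 6 (671, 388, 564 and 170), with Tyr not detected. Normalized values differed from these sums in part. Without DAPT, 3 of 4 melanocyte genes tested were higher on day 7 (median log2 difference 0.66), while their sum fell. With DAPT on day 4, 5 of 8 fibroblast genes were higher and 3 lower (median 0.08), while their sum was lower. Ptprc, Cd207 and Cd74 of the immune list and Cdh5 and Kdr of the endothelial list were not detected, leaving 2 of 5 and 2 of 4 markers. The part of these cell types in the differences below was not tested, and in such bulk RNA fewer cells of a type and less RNA per cell cannot be told apart.

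**Figure D1:**
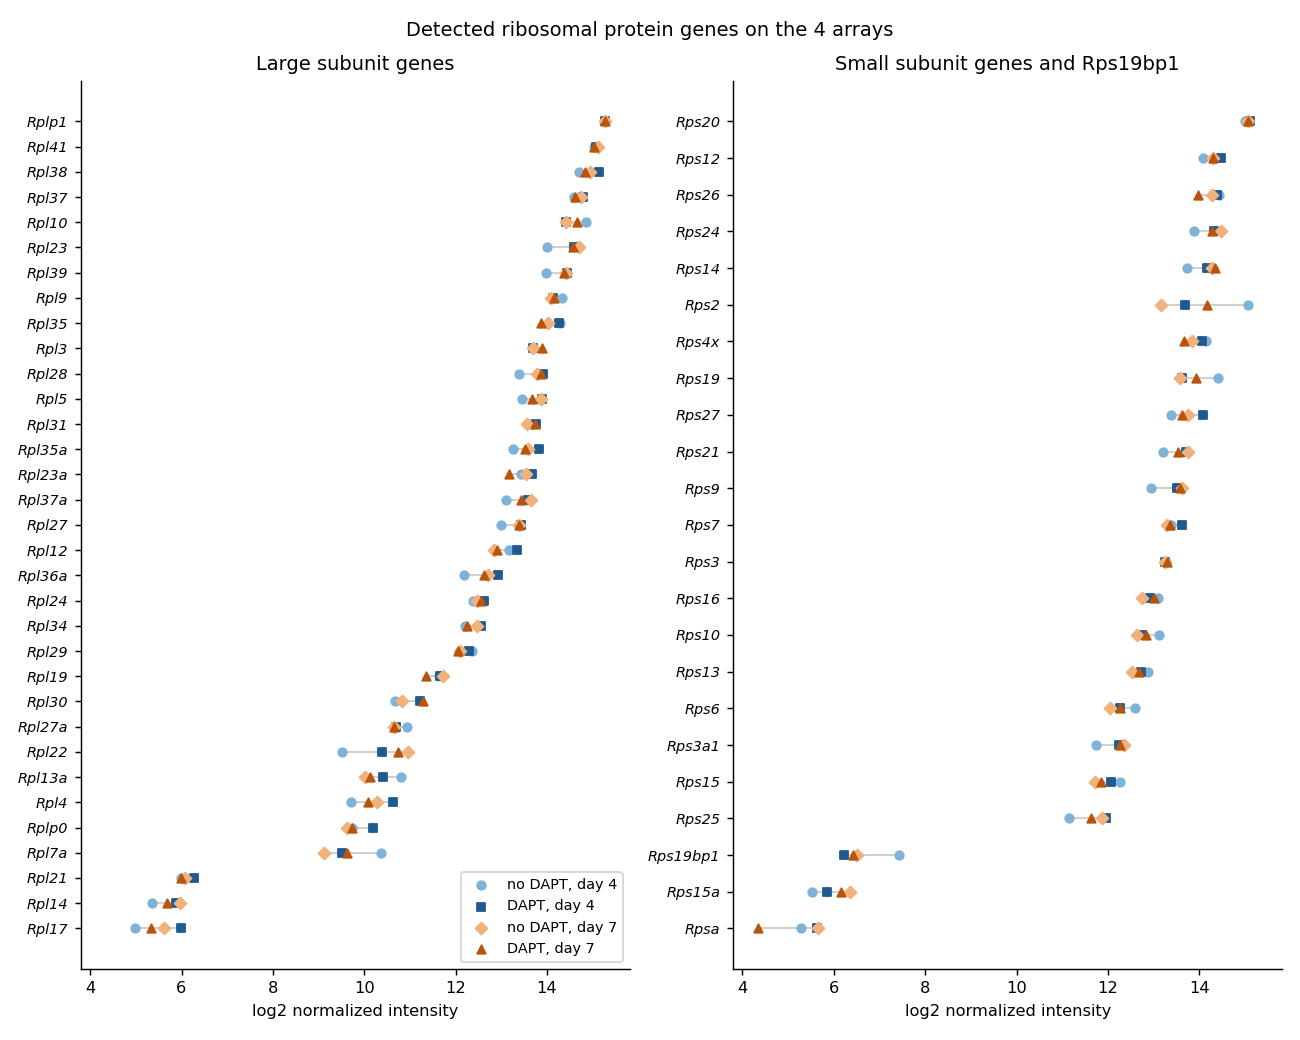
Log2 normalized intensity (x axis) of the 56 detected genes on the 4 arrays, 1 point per array, with large subunit genes on the left and small subunit genes with Rps19bp1 on the right, ordered by mean. Most genes span well under 1 log2 unit, while Rps2 spans 1.90 and Rpl22 1.44.

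The span from the highest to the lowest array had a median of 0.49 on the log2 scale over the 56 genes, against 0.64 over all 10359 detected genes. Of the 56, 29 spanned less than 0.5 (51.8%, against 33.5%). Spans were not compared with those of genes of equal brightness. With 75th percentile scaling the order of the medians turned, to 0.89 against 0.71, and 27 of the 56 spanned 1 or more (48.2%, against 27%). With quantile normalization 6 genes spanned 1 or more (10.7%, against 20.7%): Rps2 (1.90), Rpl22 (1.44), Rpsa (1.32), Rpl7a (1.24), Rps19bp1 (1.20) and Rpl17 (1.01). Apart from Rplp1, the narrowest spans were those of Rps3 (0.04, but 1.04 on its second probe), Rpl41 (0.09), which encodes the smallest protein of the ribosome, and Rps20 (0.12). Rpl41 was at 15.02, 15.07, 15.11 and 15.02, and Rps20 was highest at 15.11 with DAPT on day 4, both close to the top of the scale.

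Of the 56 genes, 22 were highest with DAPT on day 4 (39.3%, against 24.9% of the 10359 genes detected) and 1 was lowest there (1.79%, against 18.6%). That gene was Rps19bp1, so none of the 55 subunit genes was lowest on that array alone. Without DAPT on day 4, 27 genes were lowest (48.2%, against 37.8%) and 18 highest (32.1%, against 28%). Rplp1, level on all 4 arrays by the method, was counted among these 18. The most frequent order, in 13 genes, ran from DAPT on day 4 down through no DAPT on day 7 and DAPT on day 7 to no DAPT on day 4, and included Rpl4, Rpl5, Rpl38, Rps25 and Rps27. The next, in 8 genes, ran from no DAPT on day 4 through DAPT on day 7 and DAPT on day 4 to no DAPT on day 7: Rpl7a, Rpl9, Rpl10, Rps2, Rps6, Rps10, Rps16 and Rps19. This second order is that of the mean intensity of the arrays, and 6.73% of all genes had it, against 14.3% of the 56. Its reverse held for 5 of the 56 (8.93%, against 8.61%). With median scaling, with scaling to the 75th percentile and in the authors' values, the DAPT array of day 4 was lowest in 1, 1 and 2 of the 56. The shares of all genes were 21.5%, 13% and 17.2%. This array was highest in 32, 26 and 18 of the 56, against 19.3%, 25.8% and 24.8% of all genes. The array without DAPT on day 7 was highest in 7, 25 and 18, against 14.1%, 40.7% and 30%.

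On day 4, ribosomal protein genes were on balance slightly higher with DAPT. Of the 56 genes, 37 had a log2 difference (DAPT minus no DAPT) above 0 and 18 below, with a median of 0.24, against a median of 0.08 and 55.8% above 0 over 9913 genes tested. The median was 0.28 over the 33 large subunit genes, 25 of which were above 0, and 0.18 over the 22 small subunit genes, 12 of which were above 0. With no scaling between arrays the subunit medians were 0.07 and -0.03. The differences had an SD of 0.49 over the 56 genes and 0.55 over all genes. Over the 40 members with a mean log2 of 12 or more it was 0.42, against 0.41 over all 399 such genes. The size of the median depended on the scaling, from 0.05 with no scaling between arrays to 0.78 with 75th percentile scaling, and it stayed above the median of all genes, by 0.12 to 0.54, under all 12 settings.

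A 2-fold threshold on day 4 was reached by 1 gene that was higher with DAPT (Rpl17, against 3.73% of all genes) and by 2 that were lower (Rps2 and Rps19bp1, against 3.55%). At 1.5-fold, 7 were higher (against 16% of all genes) and 4 lower (against 11%). The latter are 12.5% and 7.14% of the 56. These low counts depended on the scaling: with 75th percentile scaling 19 of the 56 were at least 2-fold higher, against 7.57% of all genes, and 1 was lower.

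With quantile normalization Rps2, a protein of the mRNA entry channel of the small subunit, varied more than any other member. It has 1 probe on the array, as do Rpl7a and Rpl22, so no second probe can be set beside it. On day 4 its level was 15.07 in untreated and 13.69 in treated cells, and on day 7 it was 13.17 and 14.18. The deposited intensities behind these levels were 35526, 13249, 8097 and 19711. Rps2 was thus highest without DAPT on day 4 and lowest without DAPT on day 7, with both DAPT arrays between them. This is also the order of the arrays' mean intensity. The difference with DAPT was -1.37 on day 4 (2.59-fold lower) and 1.01 on day 7 (2.01-fold higher), and both kept their sign under the 7 ways of scaling and background correction, at -1.42 to -0.70 and 0.75 to 1.28.

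Rps19, a small subunit protein whose mutation causes Diamond-Blackfan anaemia in humans, had levels of 14.41, 13.63, 13.59 and 13.92 in the array order above. It was highest without DAPT on day 4, and the other 3 arrays lay within 0.33 of each other. Its second probe, much dimmer, ran in parallel on day 4 with levels of 6.42 and 5.56, and the differences were -0.78 for the bright and -0.86 for the dim probe. On day 7 the same probes differed by 0.33 and 0.31, and the dim probe was detected on 3 of the 4 arrays. Between the days with DAPT the differences were 0.29 for the bright and -0.11 for the dim probe.

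Rpl7a, a large subunit protein, followed the same order with levels of 10.36, 9.51, 9.11 and 9.63. Its difference with DAPT was -0.85 on day 4 and 0.52 on day 7. Rps6, the small subunit protein phosphorylated by the S6 kinases, was at 12.60, 12.26, 12.04 and 12.27, highest without DAPT on day 4. Its day 4 difference of -0.34 became 0.09 with 75th percentile scaling. Rpl10, which completes the large subunit late in its assembly, was at 14.85, 14.42, 14.41 and 14.65, and the sign of its day 4 difference (-0.44) turned under median scaling and 75th percentile scaling. Rpl13a, known also for its role in silencing inflammatory mRNAs, was at 10.81, 10.40, 10.01 and 10.12.

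The highest differences with DAPT on day 4 belonged to the large subunit genes Rpl17, Rpl4, Rpl22 and Rpl36a and the small subunit gene Rps25. Rpl17 was near background, at 4.98 without DAPT on day 4, where it was not detected, and at 5.98, 5.61 and 5.33 on the other arrays. With DAPT on day 4 its signal was 2.01-fold above that undetected signal, a log2 difference of 1.01. Over the 7 ways of scaling and background correction this difference ranged from 0.52 to 1.69. Rpl4, whose long loop lines the exit tunnel, had levels of 9.71, 10.64, 10.27 and 10.08, a difference of 0.93. Its second probe, at 6.50, 7.38, 7.28 and 6.80, differed by 0.88, so both probes were lowest without DAPT on day 4 and highest with DAPT on day 4.

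Rps25, needed for some internal ribosome entry sites, was at 11.14, 11.95, 11.88 and 11.62, lowest without DAPT on day 4. Its difference on day 4 was 0.81, with a range of 0.41 to 1.13 over the 7 ways of scaling and background correction. Rpl36a, at 12.19, 12.92, 12.71 and 12.61, had the same order and a difference of 0.73. Rpl5, which carries the 5S ribosomal RNA and binds Mdm2 when ribosome assembly fails, was at 13.46, 13.90, 13.88 and 13.67. Its partner in that particle, Rpl11, was not analysed here, and neither was Rps27a.

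Rps19bp1, the member that is no subunit, was at 7.42, 6.22, 6.52 and 6.43, highest without DAPT on day 4 and with the other arrays within 0.30 of each other. It was 2.29-fold lower with DAPT on day 4 and differed by -0.09 on day 7.

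**Figure D2:**
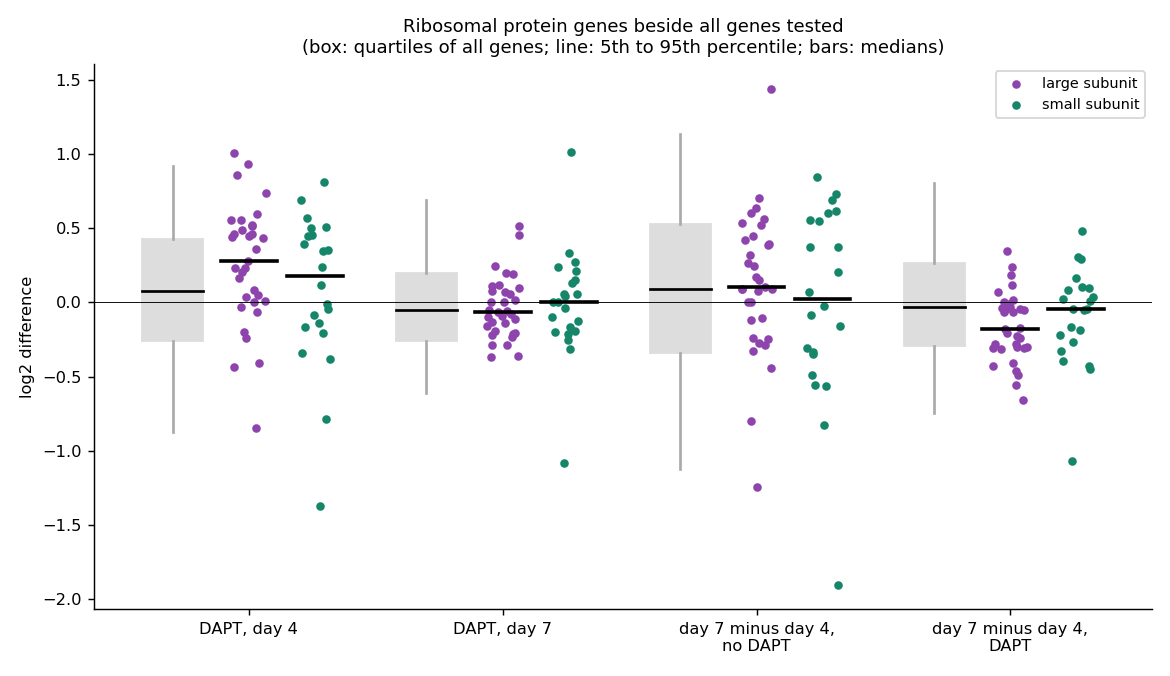
Log2 differences (y axis) of large and small subunit genes in the 4 comparisons, 1 point per gene with bars at the medians, beside all genes tested (box, quartiles with the median; grey line, the outer percentiles named in the title). Points for both subunits lie mostly inside the span of all genes, and the large subunit median is 0.28 for DAPT on day 4 and -0.18 for day 7 minus day 4 with DAPT.

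On day 7, the ribosomal protein genes lay close to all other genes. The median difference was -0.05, equal to that of all genes at 2 decimals, with 23 genes above 0 and 30 below, and it turned positive with median scaling (0.03, against 0.17 over all genes) and with no scaling between arrays (0.25, against 0.39). The SD was 0.28, against 0.40 over 9705 genes. Over the 40 members with a mean log2 of 12 or more it was 0.23, against 0.24 over all 399 such genes. At least 2-fold, 1 gene was higher (Rps2, against 1.62% of all genes) and 1 lower (Rpsa, against 0.464%), and the same genes were the only ones past 1.5-fold, against 7.2% higher and 5.72% lower of all genes.

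Rpsa, the small subunit protein also known as a laminin receptor, was dim, at 5.29, 5.64, 5.66 and 4.34, and was not detected with DAPT on day 7. Against the lowest detected signal of that array, it was at least 2.12-fold higher without DAPT on day 7. After Rps2 and Rpl7a, the highest day 7 differences were 0.45 for Rpl30, 0.33 for Rps19 and 0.27 for Rps16. After Rpsa, the lowest were -0.37 for Rpl19, -0.36 for Rpl23a, -0.32 for Rps26 and -0.29 for Rpl17. Rpl30, at 10.66, 11.22, 10.83 and 11.29, was higher with DAPT on both days, by 0.56 and 0.45.

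The DAPT differences of the 2 days share no array and can be set side by side, though all 4 arrays were normalized together. Mean intensity was lower with DAPT on day 4 (472 without, 365 with) and higher with DAPT on day 7 (323 without, 416 with). The part of array brightness in differences of opposite sign was not tested. Of the 56 genes, 25 were higher with DAPT on day 4 and lower on day 7 (44.6%, against 38.3% of the 9259 genes tested on both days), and 13 were lower on day 4 and higher on day 7 (23.2%, against 25.3%). Another 10 were higher on both days (17.9%, against 18.2%), 5 lower on both (8.93%, against 18.1%), and 3 were at 0 on a day. Across genes, which share the 4 arrays and are not independent replicates, Pearson's r was -0.56 and Spearman's rho -0.52 over the 56, and -0.29 and -0.32 over all genes. Over the 399 genes with a mean log2 of 12 or more, 40 of them members, these were -0.37 and -0.38. For small subunit genes alone r was -0.71 (n = 22), and for large subunit genes -0.51 (n = 33). Rps2, Rpl7a and Rps19 were lower with DAPT on day 4 and higher on day 7, in the order of mean intensity. Rpl4, Rpl22, Rps25 and Rps27 were the other way round.

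**Figure D3:**
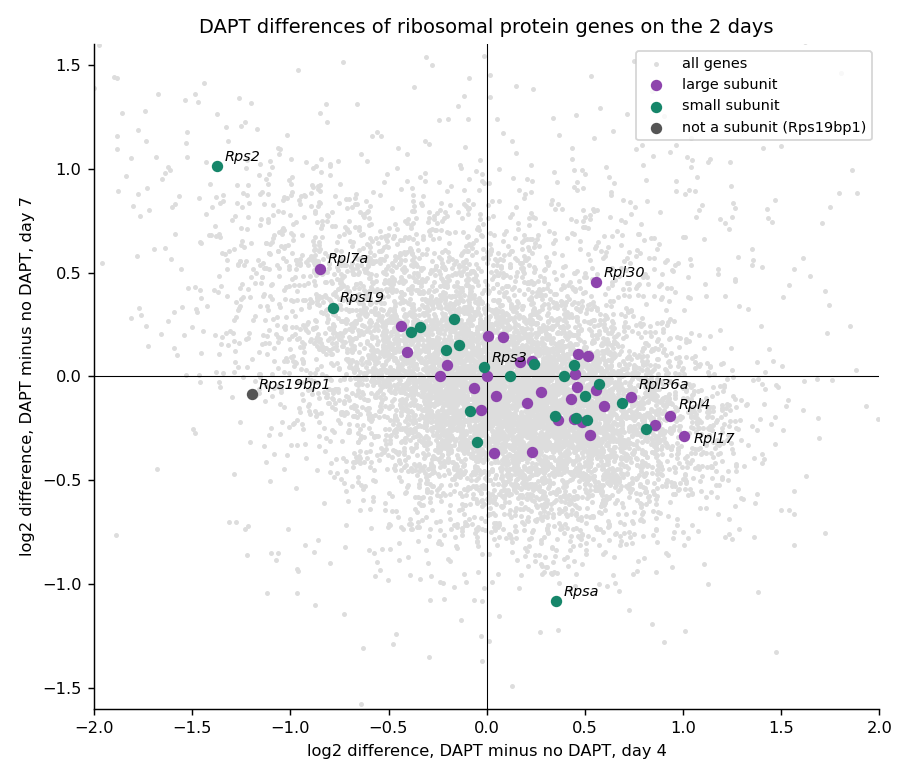
Log2 difference with DAPT on day 4 (x axis) against day 7 (y axis) for the 56 genes, coloured by subunit, over all genes in grey; a few grey points lie outside the axes. Rps2, Rpl7a and Rps19 sit at the upper left, and most other members spread to the right of 0 near the horizontal axis, 25 of the 56 at the lower right.

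Without DAPT, the median difference (day 7 minus day 4) was 0.09 for the 56 genes and for the 9879 genes tested, with 32 members above 0 and 22 below. This match depended on the scaling: the members' median was above that of all genes with 75th percentile scaling (0.70 against 0.33), with median scaling (0.22 against -0.14) and with no scaling between arrays (-0.26 against -0.63). Over the 12 settings it lay from 0.05 below to 0.37 above the median of all genes, above it in 11. At least 2-fold, 1 gene was higher on day 7 (Rpl22, against 7.39% of all genes) and 2 lower (Rps2 and Rpl7a, against 6.51%). With 75th percentile scaling 20 were higher (against 13.5% of all genes), and with no scaling between arrays none was higher and 6 were lower (against 28.8%). At least 1.5-fold, 9 were higher (against 21.9%) and 5 lower (against 15.4%). The SD was 0.57, against 0.70 over all genes. Over the 40 members with a mean log2 of 12 or more it was 0.50, and over all 399 such genes also 0.50.

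Rpl22, a large subunit protein that mice can live without, had levels of 9.52, 10.38, 10.96 and 10.73, lowest without DAPT on day 4 and highest without DAPT on day 7. Its difference of 1.44 without DAPT (2.72-fold) kept its sign under the 7 ways of scaling and background correction, at 0.76 to 1.72, and with DAPT it was 0.35. The dim small subunit gene Rps15a, at 5.51, 5.86, 6.36 and 6.17, was also higher on day 7 in both pairs, by 0.85 and 0.31. The next highest differences without DAPT were 0.73 for Rps25, 0.70 for Rpl23 and 0.69 for Rps9. The lowest were -1.90 for Rps2 (3.74-fold lower), -1.24 for Rpl7a, -0.90 for Rps19bp1, -0.82 for Rps19 and -0.80 for Rpl13a.

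With DAPT, large subunit genes were slightly lower on day 7 than on day 4. Of the 33 large subunit genes, 26 had a difference below 0 and 18.2% were above 0, against 47.1% of the 9860 genes tested, and their median was -0.18. The large subunit median lay between -0.35 and -0.06 over the 7 ways of scaling and background correction. Of the 22 small subunit genes, 12 were below 0, with a median of -0.04 that became 0.04 with no scaling between arrays. The difference between the subunits was not tested. Over all 56 genes the median was -0.06, against -0.03 over all genes, and it stayed below the median of all genes, by 0.02 to 0.26, under all 12 settings. The DAPT comparison of day 4 shares the DAPT array of day 4 with this one.

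At least 2-fold, no gene was higher on day 7 with DAPT (against 2.97% of all genes) and 1 was lower, Rpsa (against 1.96%), a bound against background. At least 1.5-fold, no gene was higher (against 9.8%) and 2 were lower, Rpsa and Rpl17 (against 9.24%). After these, the lowest differences were -0.56 for Rpl4, -0.49 for Rpl23a and -0.46 for Rplp0. Rplp0, the base of the stalk, was at 9.73, 10.19, 9.62 and 9.73, so it was higher with DAPT on day 4 than on the other arrays, which lay within 0.11 of each other. Its second probe, at 8.54, 9.30, 9.03 and 9.02, was also highest with DAPT on day 4. The 2 probes disagreed between the days without DAPT, at -0.11 and 0.49. The highest differences were 0.48 for Rps2, 0.35 for Rpl22, 0.31 for Rps15a, 0.29 for Rps19 (-0.11 on its dim probe) and 0.24 for Rpl10.

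Different probes for 1 gene show how far a difference depends on the probe. They read the same RNA on the same arrays, so their spread holds no error between samples. Over all genes with 2 detected probes, the SD between the probes' differences was 0.46 for DAPT on day 4, 0.31 for DAPT on day 7, 0.54 between the days without DAPT and 0.26 with DAPT. The 13 ribosomal protein genes with more than 1 detected probe disagreed in sign in 3, 7, 7 and 1 cases, and their probes differed by 0.5 or more in 6, 3, 7 and 2.

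Rps9, a small subunit protein, showed the clearest disagreement between bright probes. Its probe used above was at 12.93, 13.50, 13.63 and 13.59, lowest without DAPT on day 4, while its other probe was at 13.26, 12.68, 12.26 and 12.91, highest there. On day 4 they differed by 0.57 and -0.58 with DAPT. Rps3, an entry channel protein with a further role in DNA repair, was level on its first probe, at 13.27, 13.26, 13.25 and 13.29. Its second probe was at 13.11, 12.38, 12.07 and 12.86, in the order of Rps2, with a difference of -0.73 on day 4 and 0.79 on day 7.

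Rpl23 had 4 detected probes, whose day 4 differences ran from -0.04 to 1.18, and the brightest, at 13.99, 14.59, 14.70 and 14.56, gave 0.60. The probes of Rpl27a gave -0.24 and 0.86 on day 4. Rpl38, a large subunit protein that mice need for translating a set of Hox mRNAs, was higher with DAPT on day 4 on both probes. They were at 14.70, 15.13, 14.94 and 14.83 and at 10.58, 11.66, 11.14 and 10.97, with differences of 0.43 and 1.08. Processed pseudogenes of ribosomal protein genes are common in the mouse genome, and since probe sequences were not used here, which copies or transcript forms a probe reads was not tested.

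**Figure D4:**
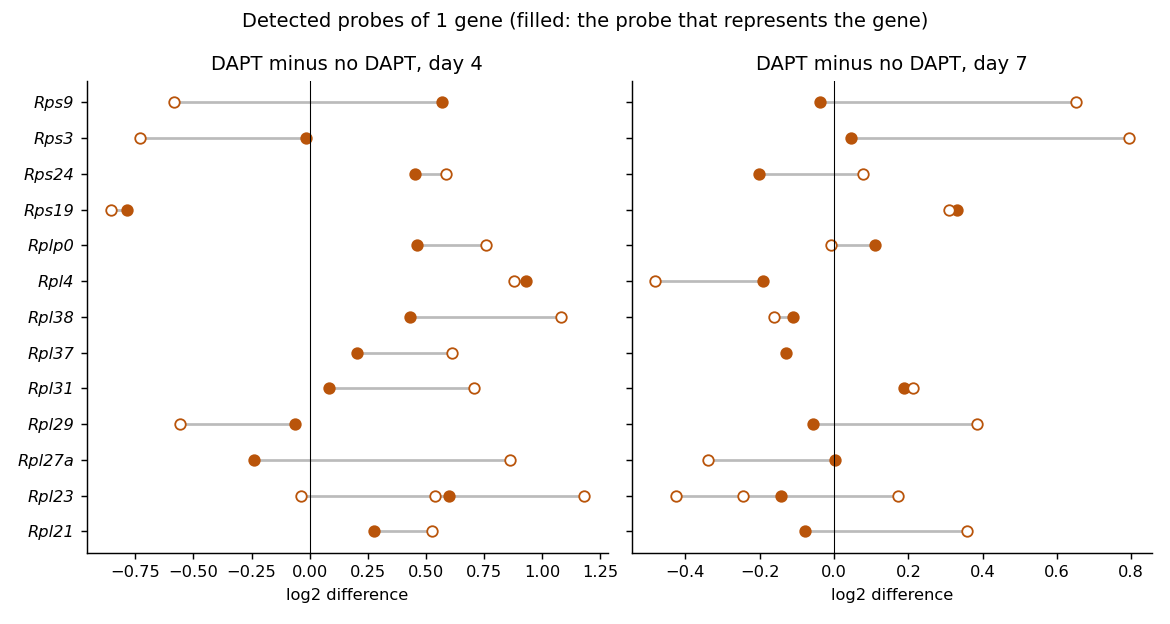
Log2 difference with DAPT on day 4 (left) and day 7 (right) for each detected probe of the 13 genes with more than 1, where the filled point is the probe used for the gene and lines join probes of 1 gene. Rps9 runs from -0.58 to 0.57 on day 4 and Rpl23 from -0.04 to 1.18, while the probes of Rpl4 and Rps19 lie close together on that day.

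A fit of DAPT and day as additive effects over the 4 arrays leaves 1 residual degree of freedom. Its variance was pooled fully over genes, so all genes share an SE of 0.38. In limma with Benjamini-Hochberg adjustment over 10359 genes, no ribosomal protein gene passed an adjusted p of 0.05 for DAPT (0.116% of all genes did) or for day (1.83% did). At an unadjusted p under 0.05, no member passed for DAPT, against 1.96% of all genes, and 1 passed for day, against 9.41%. That member was Rpl22, with an effect of 0.89 and an adjusted p of 0.339. For DAPT, the smallest p-values belonged to Rps19bp1 (-0.64), Rpl30 (0.50) and Rpsa (-0.48), each with an adjusted p of 1. The day effect of Rps2 was -0.71, with an adjusted p of 0.602. This fit averages the DAPT differences of the 2 days, so a gene such as Rps2, with opposite signs on the 2 days, contributes to its residual.

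Of 5 detected paralogs outside the rule, 2 passed 2-fold for DAPT on day 4, both upwards (against 3.73% of all genes), and 1 between the days without DAPT, also upwards (against 7.39%). Rpl39l, a paralog of Rpl39 best known from testis, was at 8.42, 10.11, 10.06 and 9.86, lowest without DAPT on day 4, with a difference of 1.69 for DAPT on day 4 and 1.64 between the days without DAPT. Rpl39 itself differed by 0.46. Rpl22l1, which the Rpl22 protein represses in mouse cells, was at 9.86, 11.07, 10.41 and 10.10, with differences of 1.20 with DAPT on day 4 and 0.55 between the days without DAPT. Rpl22 and Rpl22l1 were thus both lowest without DAPT on day 4. Fau, which encodes a small subunit protein as a fusion, was at 13.49, 13.05, 12.98 and 12.79.

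Genes that make or use ribosomes were compared in lists. The 70 mitochondrial ribosomal protein genes tested had medians of -0.03 for DAPT on day 4, -0.07 for DAPT on day 7, -0.12 between the days without DAPT and -0.08 with DAPT. None was at least 2-fold higher in any comparison, and 2, 0, 6 and 0 were lower, against 3.55%, 0.464%, 6.51% and 1.96% of all genes. Among these were Mrps10 (-1.30 on day 4 with DAPT) and Mrpl34 (-1.26). Ribosome biogenesis factors, 25 or 26 tested, had medians of -0.17, 0.09, -0.32 and -0.19, with 2, 0, 5 and 0 at least 2-fold lower, against the same shares, and 0, 1, 0 and 0 higher, against 3.73%, 1.62%, 7.39% and 2.97%. Nop56, a core protein of the particles that methylate ribosomal RNA, was at 8.20, 6.73, 6.24 and 7.56, the order of Rps2. Fbl, the methylase of that particle, was at 10.73, 10.13, 9.39 and 9.80, also highest without DAPT on day 4 and lowest without DAPT on day 7.

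Other mRNAs listed as carrying a TOP motif, 18 or 19 tested, had medians of -0.08, 0.14, -0.21 and -0.22. The list holds translation factors and other genes such as Hnrnpa1, Nap1l1 and Npm1, and Npm1 is also among the biogenesis factors. At least 2-fold, 1, 0, 4 and 0 were lower and 0, 0, 1 and 0 higher, against the shares of all genes just given. Eef2, the elongation factor that moves the ribosome along, was at 10.26, 7.75, 7.61 and 7.85, high without DAPT on day 4 and nearly level on the other 3 arrays. Eef1a1, which brings aminoacyl-tRNA to the ribosome, was dim, at 5.76, 6.63, 6.95 and 6.36, lowest where Eef2 was highest. It was chosen after its values were seen, and signals this close to background limit the reading of that contrast. RNA polymerase I genes, 8 or 9 tested, had medians of 0.23, -0.05, 0.04 and -0.18, and Ubtf, its transcription factor, was at 8.66, 7.60, 7.19 and 7.79. Of 5 genes on a list drawn up for ribosome assembly failure, Cdkn1a (-1.02) and Cdkn2a (-1.23) passed 2-fold. Both were lower with DAPT on day 4 (against 3.55% of all genes), and Mdm2 differed by 0.24. Being listed does not make a gene specific to that response, and the response itself was not tested. Cdkn2a was also 1.18 higher on day 7 than on day 4 with DAPT (against 2.97% at least 2-fold higher).

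**Figure D5:**
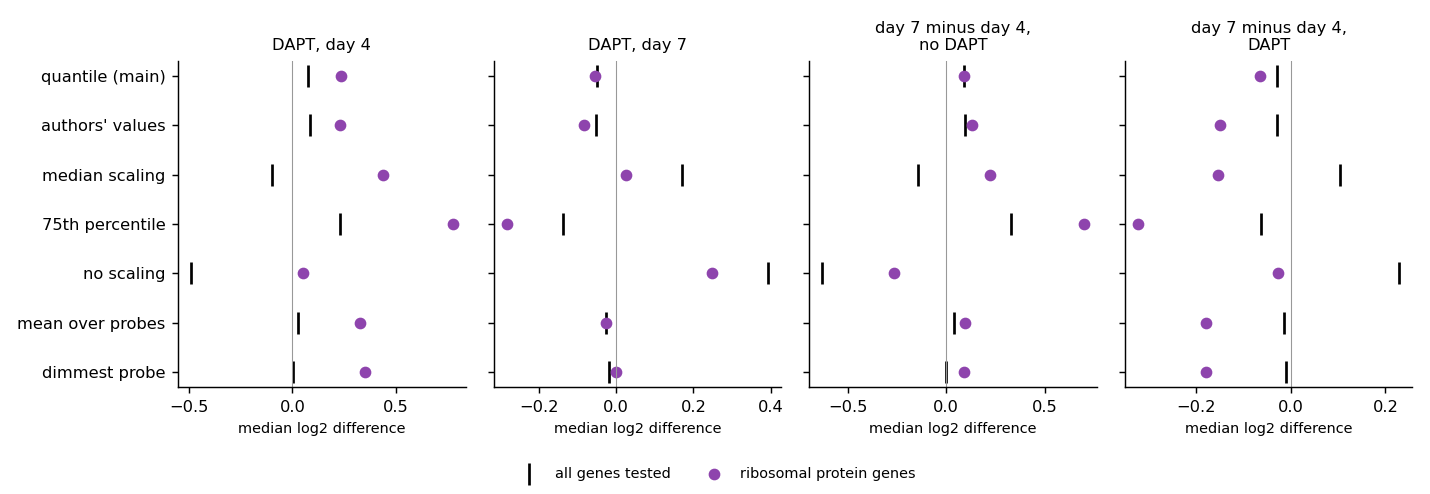
Median log2 difference (x axis) of the ribosomal protein genes (points) and of all genes tested (bars) in the 4 comparisons under quantile normalization and 6 other settings (y axis). For DAPT on day 4 the points lie to the right of the bars in every setting shown, and for day 7 minus day 4 with DAPT to the left, while the sign of the day 7 median with DAPT varies.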

How the data were processed

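RNA from 4 samples was hybridised to 4 Illumina arrays. The deposited table holds the authors' non-normalized intensity per probe, negative in part, and a detection p-value, which the authors made with BeadStudio per the submitters' processing notes; the version and the array's genome build are not given in the sources used here. A second deposited table of intensities normalized by the authors served as an alternative. Background was corrected by neqc of limma 3.58.1 (R 4.3.3), whose negative controls it infers from detection p-values, an offset of 16, quantile normalization and log2. Of 25697 probes, 23978 had 1 symbol, 0 several and 1719 none; 23962 had an Entrez ID in RefSeq. A gene took its probe with the highest mean, and entered a comparison if detected (p-value under 0.01) on at least 1 of its 2 arrays. Where the dimmer array did not detect it, the difference was taken against the higher of its own signal and that array's lowest detected signal. Counts use 2-fold and 1.5-fold. limma's lmFit and eBayes, with a threshold of 0.05, were tested on simulated data. Figures were drawn with matplotlib 3.10.9, and tables were made with pandas 2.3.3 on Python 3.11.15.

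Groups came from the sample titles. The members and lists were chosen with earlier results of these data known. Named members are the 5 highest and 5 lowest in any comparison, those at least 2-fold different, the 5 brightest and 5 dimmest, the 5 with the widest probe range, those with the smallest p-values in the fit and a fixed list of well-known members; of other lists, up to 4 at least 2-fold. Genes named by the order of their arrays, and Eef1a1, Mdm2 and Rpl39 were chosen after their values were seen. The alternatives were median scaling, no further background correction, an offset of 50, the authors' values, detection on both arrays or no filter, the mean or the dimmest probe, the family without non-subunits, and, chosen after seeing the data, 75th percentile scaling and no scaling between arrays. The number of arrays, 1 per group, limits the precision. Sequences are from RefSeq, GRCm38.p6.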

Additional observations from a re-analysis of the deposited data

Results flagged for a closer look

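The differences below changed sign between days or between treatments; with 1 array per group, the change itself was not tested. The median DAPT difference of the 56 ribosomal protein genes was 0.24 on day 4 and -0.05 on day 7, a change of -0.29; that of all genes was 0.08 and -0.05, and with median scaling the members' medians were 0.44 and 0.025, without a change of sign. That of Rps2 was -1.37 and 1.01, a change of 2.38, and that of Rpl7a -0.85 and 0.52, a change of 1.37. The median difference between the days (day 7 minus day 4) was 0.09 without and -0.06 with DAPT, a change of -0.16. For Rpl4 it was 0.56 and -0.56, a change of -1.12. For Rpl17 it was 0.63 and -0.66, a change of -1.29, and this gene was not detected without DAPT on day 4. Each of these pairs uses all 4 arrays. Mean intensity was lower with DAPT on day 4 and higher with DAPT on day 7.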

How the results depend on the processing

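Replicates could not be paired because each group has 1 array and the labels give no replicate numbers, and no array could be left out. The additive fit holds day as a term, so it compares DAPT with no DAPT within each day. Of 154 combinations of a result and an alternative, 3 medians changed sign, 29 values moved (medians by more than the SD between probes of 1 gene, counts by over 1.5 times) and 122 did neither, although medians among them ranged from 0.05 to 0.44 for DAPT on day 4, down to -0.28 for DAPT on day 7 and down to -0.32 between the days with DAPT. The median for DAPT on day 7 became 0.025 with median scaling and 0.25 with no scaling between arrays, and that between the days without DAPT became -0.26 with no scaling. With 75th percentile scaling the medians for DAPT on day 4 and for the days without DAPT were 0.78 and 0.70, with 19 and 20 genes at least 2-fold higher and 1 lower for DAPT on day 4; for DAPT on day 7, 0 were higher. All-gene medians moved with the scaling, to 0.23 and 0.33 there and to -0.49 and -0.63 with no scaling. For DAPT on day 4, the count of genes at least 2-fold higher was 0 with median scaling, an offset of 50, detection on both arrays or no scaling, and 3 with the dimmest probe; the count lower was 1 with an offset of 50 or without Rps19bp1. For DAPT on day 7, the count higher was 0 in the authors' values and 2 with no scaling, and the count lower was 0 with median scaling, an offset of 50, detection on both arrays or no scaling. Between the days without DAPT, the count higher was 2 with median scaling, 3 in the authors' values or with the dimmest probe, and 0 with no scaling; the count lower was 5 with the dimmest probe and 6 with no scaling. With DAPT, the count lower was 0 with median scaling, an offset of 50, detection on both arrays or no scaling. The additive fit called 0 members under every alternative. The share of summed intensity with an offset of 50 was 5.76%, 6.20%, 5.84% and 5.82%. Where not given by the alternative itself, the cause was not tested. Precision is limited most for Rpl14, Rpl17, Rpl21, Rps15a and Rpsa, whose signal lies close to background.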
